A study of Mus musculus with 22 samples.

Results

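The LRRC8 genes encode the subunits of the volume-regulated anion channel, and all 5 of them (Lrrc8a, Lrrc8b, Lrrc8c, Lrrc8d and Lrrc8e) were found by their symbols among the 29367 genes of the count table. The choice used no measured value, but the family was taken up with earlier results of these data known. RNA-seq was made from mRNA on HA-tagged astrocyte ribosomes of the unmyelinated optic nerve head (ONH) and the myelinated optic nerve proper (ONP) of mice with microbeads injected into an eye to raise its pressure. There were 4 libraries per region at 7 days (columns 1, 3, 5 and 6 in the ONH and 1, 2, 5 and 6 in the ONP) and 7 per region at 30 days, 22 in all. A library represents 4 mice of 3 to 4 months, of which 2 were male.

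All 4 groups carried the same alleles and treatment. The mice came from the Rpl22 RiboTag strain B6J.129(Cg)-Rpl22tm1.1Psam/SjJ crossed to a transgenic strain in which the mouse GFAP promoter drives Cre, they were homozygous for the HA-tagged Rpl22 allele and carried Cre, and the labels give their genotype as WT. This Cre is not inducible, so the tag marks any cell in which the promoter has been active. After microbeads the paper found HA staining with SOX9, an astrocyte marker, and not with IBA1, OLIG2 or NG2, which mark other glia. Its RT-qPCR of 7 day ONH found only astrocyte markers enriched in the RNA pulled down by the tag. No uninjured mice were analysed here, and the comparisons therefore run between times and between regions after injury. The paper took the ONH and ONP from the same mice. At 30 days, libraries with the same number in both regions were treated as pairs, although no label says that they share mice. The 7 day columns carry numbers that do not match the sample titles, and these libraries were assigned to region and day only.

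The channel opens when a cell swells and lets chloride and small organic solutes out, which draws water with them and returns the cell to its volume. LRRC8A, also known as SWELL1, is required for channels to reach the plasma membrane and work, and it assembles with LRRC8B, LRRC8C, LRRC8D or LRRC8E. The partner sets what passes: LRRC8D favours uncharged and larger solutes such as taurine, and channels with LRRC8C or LRRC8E carry the immune messenger cGAMP. In astrocytes the channel is known for releasing glutamate and taurine during swelling.

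Total counts per library ranged from 16292489 to 33307092. The astrocyte markers were abundant in every group (Gfap, the astrocyte intermediate filament, had medians of 12185 to 19399 CPM, counts scaled by library size and TMM factor), and the summed level of 10 astrocyte markers ranged from 14645 to 34046 CPM. RNA of other cells was also present. The summed level of 8 oligodendrocyte markers (such as Mbp and Mog) was 18701 to 36161 CPM in the ONH at 7 days, 13323 to 40130 CPM in the ONH at 30 days, 80628 to 108361 CPM in the ONP at 7 days and 25535 to 84462 CPM in the ONP at 30 days. The 8 endothelial markers summed to 43.6 to 366 CPM, 28.8 to 114 CPM, 108 to 142 CPM and 12.3 to 94.7 CPM in the same order, and no marker of these 3 lists was at 0 in every library of a group. Photoreceptor markers (5 of 5) and pigment cell markers (6 of 6) were higher in the ONH than in the ONP at both times. In bulk RNA, fewer cells of a type and less RNA per cell cannot be told apart.

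Lrrc8b, Lrrc8c and Lrrc8d lie side by side on mouse chromosome 5 (GRCm38), all on the plus strand. Lrrc8b (ENSMUSG00000070639) spans 105415775 to 105490074, Lrrc8c (ENSMUSG00000054720) spans 105519388 to 105613018 and Lrrc8d (ENSMUSG00000046079) spans 105699969 to 105832436, with 29313 bases between Lrrc8b and Lrrc8c and 86950 bases between Lrrc8c and Lrrc8d. Lrrc8a (ENSMUSG00000007476) lies on chromosome 2 from 30237715 to 30263790, and Lrrc8e (ENSMUSG00000046589) on chromosome 8 from 4226827 to 4237470. The sequences before the starts of the 3 neighbours are shown because Lrrc8c changed between libraries differently from the genes on either side of it. They are RefSeq promoter windows on GRCm38.p6, plus strand, printed 5′ to 3′ up to the gene start, from chr5:105415525-105415774 for Lrrc8b, chr5:105519221-105519387 for Lrrc8c and chr5:105699719-105699968 for the first of 2 Lrrc8d starts. Capitals mark, on either strand, the GC box, read as the letters GGGCGG, and the CCAAT box.
Lrrc8b: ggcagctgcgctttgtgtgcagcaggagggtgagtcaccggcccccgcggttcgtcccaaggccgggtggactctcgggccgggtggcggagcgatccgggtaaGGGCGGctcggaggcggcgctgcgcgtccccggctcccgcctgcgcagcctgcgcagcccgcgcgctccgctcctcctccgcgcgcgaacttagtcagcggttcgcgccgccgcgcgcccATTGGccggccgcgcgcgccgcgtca
Lrrc8c: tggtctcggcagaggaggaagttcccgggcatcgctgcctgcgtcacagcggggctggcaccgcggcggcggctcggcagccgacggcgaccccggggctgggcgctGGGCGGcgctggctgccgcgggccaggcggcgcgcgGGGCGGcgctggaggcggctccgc
Lrrc8d: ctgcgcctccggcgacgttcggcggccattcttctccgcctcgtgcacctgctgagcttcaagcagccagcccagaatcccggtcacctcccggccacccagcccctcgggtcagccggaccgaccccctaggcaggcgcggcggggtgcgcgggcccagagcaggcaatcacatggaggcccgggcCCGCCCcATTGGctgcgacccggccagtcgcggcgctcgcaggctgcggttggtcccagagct
Over the 250 bases before the RefSeq start, Lrrc8b held 43 CpG dinucleotides, Lrrc8c 35 and Lrrc8d 27, against a median of 6 in 32851 mouse promoter windows of that length. GC content was 77.2%, 78.4% and 73.2%, against a median of 52.4%. The windows of Lrrc8b and of the first Lrrc8d start each held 1 GC box and 1 CCAAT box. That of Lrrc8c held 2 GC boxes and no CCAAT box, as did that of the other Lrrc8d start. Of all windows, 32.7% held a GC box and 33.8% a CCAAT box. Neither TATAAA (in 12.4% of windows) nor TGGAAA, the core of the element bound by the osmotic stress factor NFAT5 (in 18.6%), was found on either strand in any of the 6 windows of the family, the other Lrrc8d start included. The Lrrc8a window held 3 GC boxes. The Lrrc8e window held 8 CpG dinucleotides and neither box.

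Divided by the length of all exons, Lrrc8a had the highest level in each of the 4 groups, with a mean of 24.4 ± 3.41 CPM per kb (SD, n = 4) in the ONH at 7 days, 27.5 ± 9.75 (n = 7) in the ONH at 30 days, 16.2 ± 1.53 (n = 4) in the ONP at 7 days and 19.2 ± 5.99 (n = 7) in the ONP at 30 days. Its libraries did not overlap in range with those of Lrrc8b, the next in order, in any group. Lrrc8b had means of 5.57 to 10.5 CPM per kb. Lrrc8c, Lrrc8d and Lrrc8b overlapped in range in the ONH at both times, so the order of their means lay within the spread between libraries. Within libraries, Lrrc8b was above Lrrc8d in 4 of 4 at 7 days and above Lrrc8c in 6 of 7 at 30 days. Lrrc8d was above Lrrc8c in 3 of 4 at 7 days, and Lrrc8c above Lrrc8d in 5 of 7 at 30 days. In the ONP at 7 days Lrrc8c (8.21 ± 0.869 CPM per kb, n = 4) was above Lrrc8d (5.38 ± 1.40) with no overlap. That order depends on the length used. Divided by the longest transcript, Lrrc8d had the higher mean in this group (11.8 against 9.01 CPM per kb). In the ONP at 30 days Lrrc8c (3.76 ± 0.487, n = 7) was below Lrrc8d (5.91 ± 1.27) in 7 of 7 libraries, with ranges that overlapped. Lrrc8e was lowest in each group, at 0.0302 to 0.485 CPM per kb on average.

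As a share of the summed level of the family per kb, Lrrc8a made up 58.5% ± 7.18 and 64.5% ± 5.40 in the ONH at 7 and 30 days, and 40.2% ± 3.51 and 51.5% ± 11.4 in the ONP. Lrrc8b made up 15.1% ± 3.27 and 13.5% ± 1.90 in the ONH, and 25.7% ± 3.10 and 21.7% ± 6.65 in the ONP. Lrrc8c made up 12.8% ± 3.50 and 11.2% ± 2.78 in the ONH, and 20.4% ± 2.51 and 10.3% ± 1.46 in the ONP. The ONP libraries of Lrrc8c lay between 17.3% and 22.5% at 7 days and between 7.96% and 12.002% at 30 days, so these groups did not overlap. Lrrc8d made up 12.5%, 10.3%, 13.2% and 16.4% in the same order of groups, and Lrrc8e 1.12%, 0.423%, 0.522% and 0.0789%. These shares depend on the length used. The exons of Lrrc8d sum to 12573 bases and its longest transcript has 5736. Those of Lrrc8b sum to 6726 bases, of which 2409 are coding. With the coding length, Lrrc8a did not have the highest mean share in the ONP at 7 days (26.2%, against 26.3% for Lrrc8b). With the longest transcripts Lrrc8d was next after Lrrc8a in every group, and the ranges of Lrrc8a and Lrrc8d overlapped in the ONP at both times. The fall in the share of Lrrc8c in the ONP was there with each length (19.0% to 9.40% with the longest transcript and 23.8% to 12.4% with the coding length). The summed CPM of the 5 genes had means of 258 ± 50.1, 244 ± 50.6, 272 ± 31.4 and 238 ± 19.1.

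**Figure D1:**
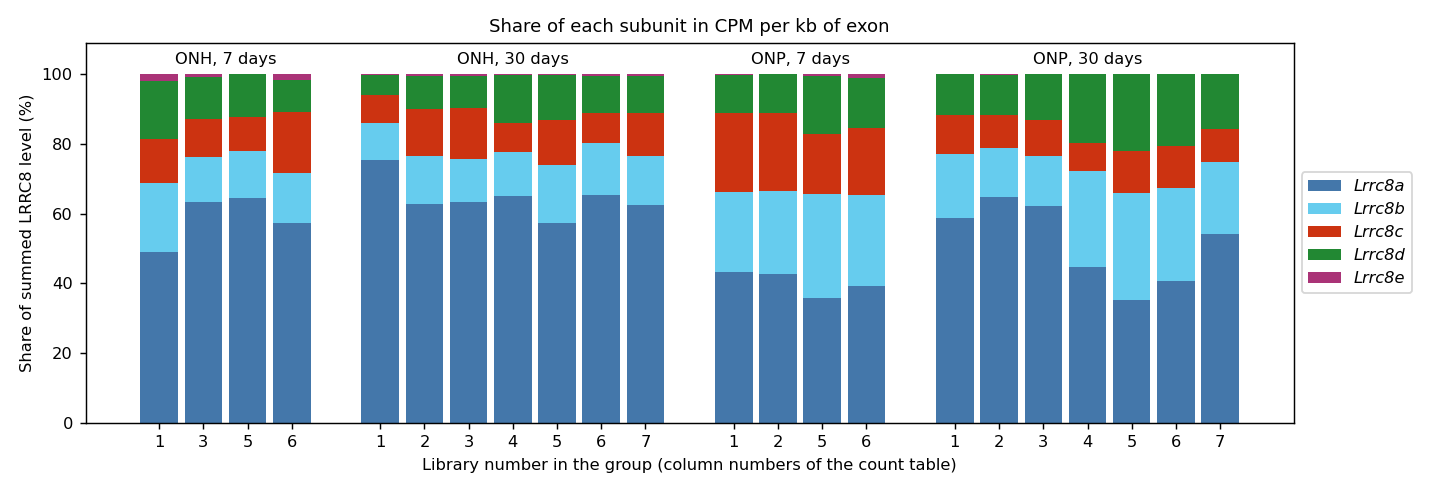
Share of each LRRC8 subunit (y axis, %) in the summed family level per kb of exon, 1 bar per library, with libraries on the x axis grouped by region and day. Lrrc8c (red) takes 17.3% to 22.5% in the ONP at 7 days and 7.96% to 12.002% in the ONP at 30 days, and Lrrc8a (dark blue) is the largest part of each of the 22 bars.

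Lrrc8c fell over time in the ONP. Its level was 63.2, 66.7, 53.3 and 68.1 CPM in the 7 day libraries and 27.4, 31.1, 32.9, 21.4, 29.9, 30.5 and 28.5 CPM in the 30 day libraries. Each 30 day library was below each 7 day library, and the groups lay farther apart than the spread within either. Lrrc8c fell 2.24-fold from 62.8 ± 6.65 (SD, n = 4) to 28.8 ± 3.73 CPM (n = 7), a log2 fold change of -1.16 (SE 0.12, 95% interval -1.41 to -0.91) with an adjusted p of 0.000351 by edgeR's quasi-likelihood test. It ranked number 10 by p among 15491 genes tested. In this comparison 17% of genes passed the threshold of 0.05 (9.21% of genes were lower at 30 days), and 5.55% of genes had 30 day libraries that all lay below the 7 day libraries. Leaving out each library in turn gave log2 fold changes from -1.23 to -1.10 with adjusted p-values from 0.000424 to 0.00225.

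Lrrc8a, Lrrc8b and Lrrc8d did not pass edgeR's test in the ONP, and Lrrc8e had too few counts to be tested by it. Lrrc8b had 56.6, 63.0, 81.1 and 80.9 CPM at 7 days against 40.2, 39.2, 39.4, 64.7, 66.9, 60.2 and 55.5 CPM at 30 days. The groups overlapped, since 3 of the 30 day libraries lay within the 7 day range, and the log2 fold change of -0.46 (SE 0.18) had an adjusted p of 0.0951. Lrrc8a (log2 fold change 0.20, 95% interval -0.26 to 0.67, adjusted p = 0.543) and Lrrc8d (0.10, interval -0.32 to 0.52, adjusted p = 0.755) had intervals that included 0 in the edgeR fit. In all, 1 of the 4 members tested was called. Without ONP library 2 of day 7, Lrrc8e passed the filter and was called as well (log2 fold change -3.26, adjusted p = 0.015).

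Markers of other cells moved in the same comparison. Of the 8 endothelial markers, 8 had a negative log2 fold change at 30 days in the ONP (5 called, median -1.90), and of the 8 oligodendrocyte markers likewise 8 did (6 called, median -0.83), while the 10 astrocyte markers had a median of 0.28 with 1 called higher and 1 lower. With the summed level of the oligodendrocyte markers as a term in the fit, the log2 fold change of Lrrc8c was -1.30 (edgeR adjusted p = 0.0021). It was -1.33 (adjusted p = 0.00956) with the endothelial markers and -1.20 (adjusted p = 0.000562) with the microglia and macrophage markers. The summed levels of 3 marker lists lay lower at 30 than at 7 days without overlap, as did Lrrc8c. They were those of the endothelial markers, of the oligodendrocyte precursor markers (1348 to 1733 CPM at 7 days and 783 to 1259 CPM at 30 days) and of the mural cell markers (79.96 to 108 CPM and 47.4 to 75.5 CPM). The median sum of the microglia and macrophage markers was 1503 CPM at 7 days and 321 CPM at 30 days, with ranges that overlapped, and that of the neuron markers was 230 and 115 CPM. Because the endothelial sums of the 2 times did not overlap, the fit with these markers cannot separate their level from time. The oligodendrocyte sums overlapped only through ONP library 5 of day 30 (84462 CPM, against 80628 to 108361 CPM at 7 days). The fit with the oligodendrocyte markers can therefore separate their level from time only weakly. The part of the endothelial, precursor, mural and neuron RNA in the fall of Lrrc8c was not tested.

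None of the 5 subunits passed the test in the ONH over time. No member was called by edgeR or by DESeq2, no member had an unadjusted p under 0.05, and across all genes 0% were called by edgeR, 2.49% by DESeq2 and 13.9% had an unadjusted edgeR p under 0.05. Lrrc8c was at 47.9, 37.6, 28.6 and 48.0 CPM at 7 days and at 39.4, 49.7, 45.5, 21.99, 34.0, 25.0 and 33.4 CPM at 30 days. The groups overlapped throughout, and the log2 fold change was -0.18 (SE 0.23) with a 95% interval from -0.67 to 0.31 and an adjusted p of 0.750. Lrrc8d had 102.9, 67.8, 58.7 and 40.6 CPM at 7 days and 46.3 to 58.2 CPM at 30 days. Its 7 day libraries spread over more than the whole 30 day range, and the log2 fold change of -0.38 had an adjusted p of 0.418. Lrrc8a (0.18, interval -0.31 to 0.66) and Lrrc8b (-0.20, interval -0.64 to 0.24) had adjusted p-values of 0.750 and 0.684.

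The difference between the regions in the 30 vs 7 day change was tested over all 4 groups. For Lrrc8c it was -0.98 on the log2 scale (SE 0.26, 95% interval -1.52 to -0.44), with an unadjusted p of 0.00108 and an adjusted p of 0.0841, number 214 of 16748 genes. It thus missed the threshold, which 0.543% of genes passed and which 12.6% of genes passed without adjustment. DESeq2, which called 2.28% of genes, called it (-0.93, adjusted p = 0.0398), as did the edgeR fit with the oligodendrocyte marker level (-1.11, adjusted p = 0.0483). Over all alternatives without leaving out a library the adjusted p ranged from 0.0398 to 0.181, and from 0.0566 to 0.230 with each library left out in turn. Lrrc8d had a difference of 0.48 (adjusted p = 0.521), Lrrc8b of -0.26 (0.770), Lrrc8a of 0.03 (0.988) and Lrrc8e of -1.39 (0.720), and 0 of the 5 members were called by edgeR.

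**Figure D2:**
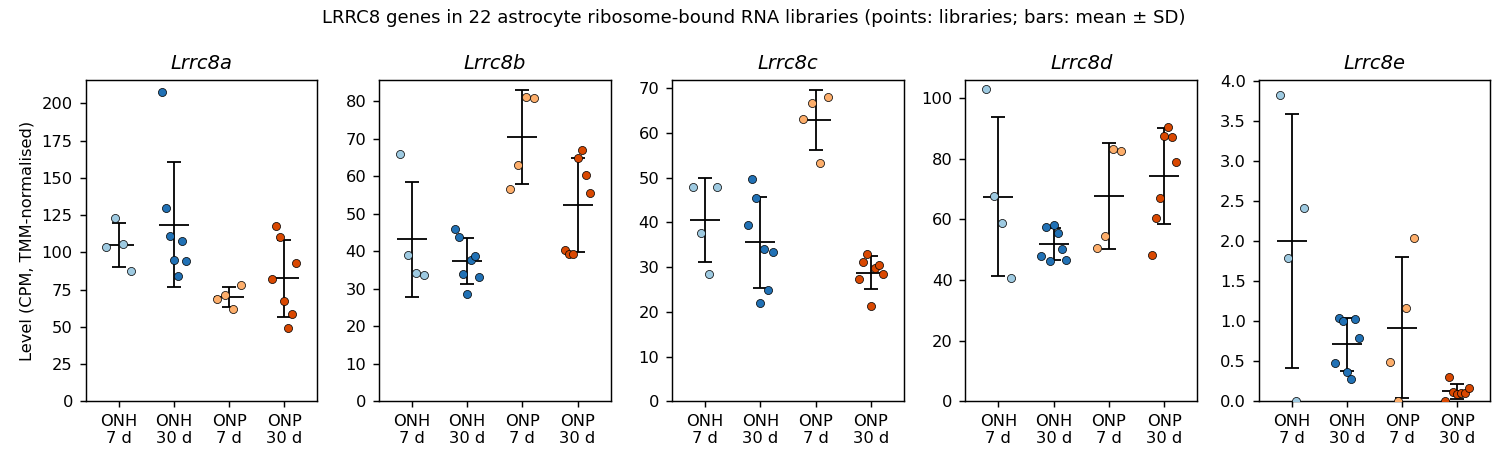
Level of each LRRC8 gene (y axis, CPM after TMM normalisation, a separate linear scale per gene) in the 4 groups of region and day, with points for libraries and bars for the mean ± SD. The 7 ONP libraries at 30 days have 21.4 to 32.9 CPM of Lrrc8c, all below the 53.3 to 68.1 CPM of the ONP at 7 days.

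Lrrc8a, the subunit every channel needs, was higher in the ONH than in the ONP at 7 days. The ONH libraries had 103.5, 123.3, 105.9 and 87.3 CPM and the ONP libraries 68.6, 71.5, 61.9 and 77.8 CPM, with no overlap. The means were 105 ± 14.7 and 70.0 ± 6.60 CPM (SD, n = 4 each), a log2 fold change of 0.62 (SE 0.16, adjusted p = 0.0324 by edgeR). In this comparison 13.2% of genes were called (6.34% of genes higher in the ONH), and 9.88% had ONH libraries that all lay above the ONP libraries. The call was lost when ONH library 1 or 3 or any of the 4 ONP libraries was left out, with adjusted p-values from 0.0519 to 0.115, while the log2 fold change stayed between 0.52 and 0.68.

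The other subunits were not called between the regions at 7 days. Lrrc8c had 28.6 to 48.0 CPM in the ONH against 53.3 to 68.1 CPM in the ONP, without overlap, as in 11.9% of genes in that direction, and its log2 fold change of -0.61 had an adjusted p of 0.0671 by edgeR and 0.0259 by DESeq2, which called 19% of genes. Lrrc8b (-0.68, adjusted p = 0.0967) overlapped through ONH library 1, which had 65.8 CPM against 33.7 to 39.0 CPM in the other ONH libraries. Without that library the value was -0.96 (adjusted p = 0.0133). Lrrc8d (0.03, 95% interval -0.60 to 0.66) varied more within each region than between them.

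At 30 days Lrrc8d was lower in the ONH, whether or not the fit used the pairing by replicate number. With all libraries, edgeR called Lrrc8b lower without the pairing and Lrrc8a higher with it. Lrrc8d had 47.9, 57.6, 46.3, 58.2, 55.6, 50.0 and 46.7 CPM in the ONH and 48.4, 60.5, 67.1, 87.3, 90.4, 87.1 and 78.9 CPM in the ONP. Library 1 of the ONP lay within the ONH range, and the ONH library was the lower one in 7 of 7 same-numbered pairs. Lrrc8d was 1.39-fold lower in the ONH, with 51.8 ± 5.22 against 74.3 ± 15.97 CPM (SD, n = 7 each), a log2 fold change of -0.48 (SE 0.13) and an adjusted p of 0.00771 by edgeR. Leaving out any library kept this call, with adjusted p-values from 0.00122 to 0.0218. With the replicate number as a block, which uses the pairing, the value was -0.45 (adjusted p = 0.00821), and leaving out each pair in turn gave adjusted p-values from 0.00633 to 0.0319.

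Lrrc8b had 45.9, 43.9, 33.9, 28.6, 37.7, 38.8 and 33.2 CPM in the ONH and 40.2, 39.2, 39.4, 64.7, 66.9, 60.2 and 55.5 CPM in the ONP at 30 days. Libraries 1 to 3 of the ONP overlapped with the ONH and libraries 4 to 7 lay above it, and the ONH was lower in 5 of 7 pairs. The log2 fold change was -0.44 (SE 0.15, adjusted p = 0.0256). With the block it was -0.42 (adjusted p = 0.0524) and no longer passed, and it passed in 2 of the 7 blocked fits that left out a pair. The call was also lost without ONH library 3 or 4 or without ONP library 4, 5 or 6, with adjusted p-values from 0.0525 to 0.0616. In this comparison 41.8% of genes were called (20% of genes lower in the ONH), so that 2 calls among the 4 members tested is close to the share of all genes. The blocked fit called 44.4% of genes and also 2 of the 4 members, Lrrc8a and Lrrc8d.

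Lrrc8a went the other way. It had 207.9, 129.8, 110.8, 95.0, 84.5, 107.3 and 94.4 CPM in the ONH and 82.1, 117.6, 110.0, 67.5, 49.3, 58.8 and 93.1 CPM in the ONP at 30 days, and the ONH library was the higher one in 7 of 7 pairs, library 7 by 94.4 to 93.1 CPM. Its log2 fold change of 0.56 (SE 0.22) had an adjusted p of 0.0537 without the block and of 0.0128 with it. DESeq2 (adjusted p = 0.046) and the single fit of all 4 groups (0.029) called it too. Without ONH library 1 the value was 0.35 (adjusted p = 0.148) in the unpaired fit, and without both libraries numbered 1 it was 0.45 (adjusted p = 0.0329) in the blocked fit. Lrrc8c was not called (0.34, adjusted p = 0.115 by edgeR, and 0.0693 with the block), and its ONH library was the higher one in 6 of 7 pairs. The share of all genes with 7 of 7 pairs in the same direction was not counted. The pair counts given for any member are therefore descriptions only. The comparisons at 30 days and over time share the 30 day libraries of each region.

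**Figure D3:**
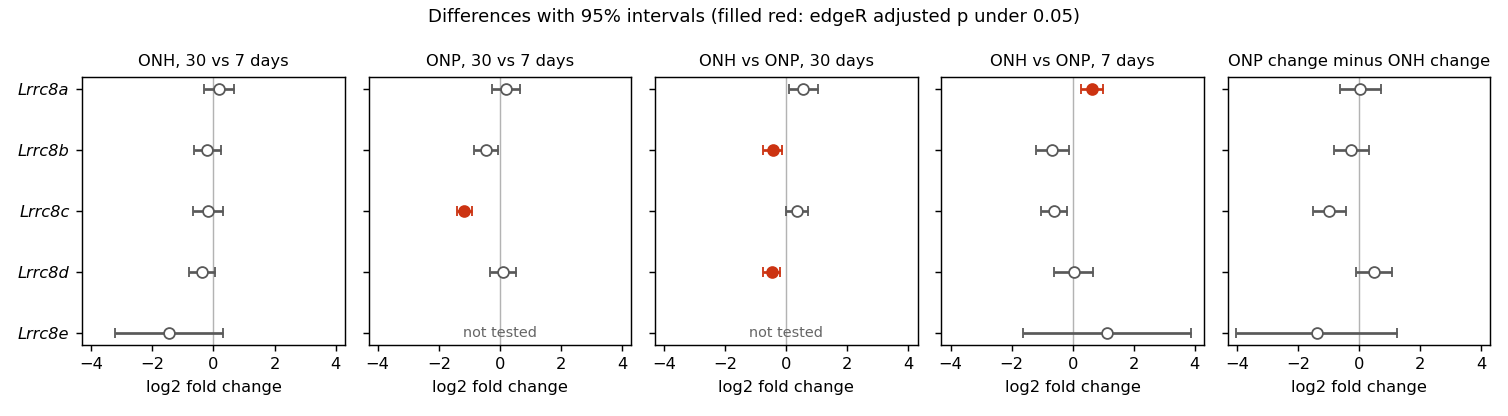
Log2 fold change (x axis) of each LRRC8 gene in the 4 comparisons and in the difference between the ONP and ONH changes, with 95% intervals; filled red points have an edgeR adjusted p under 0.05. The interval of Lrrc8c in the ONP lies between -1.41 and -0.91, and Lrrc8e was not tested in 2 comparisons because of its low counts.

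Oligodendrocyte marker RNA also differed between the regions. All 8 oligodendrocyte markers had a lower value in the ONH at both times (7 called at 30 days and 8 at 7 days). Within the ONP at 30 days, libraries 4 to 7 had oligodendrocyte marker sums of 66314, 84462, 53679 and 57706 CPM, Lrrc8b levels of 55.5 to 66.9 CPM and Lrrc8d levels of 78.9 to 90.4 CPM. Libraries 1 to 3 had sums of 43326, 37574 and 25535 CPM, Lrrc8b levels of 39.2 to 40.2 CPM and Lrrc8d levels of 48.4 to 67.1 CPM. Lrrc8a had its 3 lowest ONP values (67.5, 49.3 and 58.8 CPM) in libraries 4 to 6, which are also among those with high sums. In the ONP at 7 days, Lrrc8d was at 50.6 and 54.5 CPM where the sums were 80628 and 88168 CPM. It was at 83.0 and 82.6 CPM where they were 90920 and 108361 CPM. The ONH went the other way. Its library with the highest sum had 33.7 CPM of Lrrc8b and 40.6 CPM of Lrrc8d at 7 days (library 6), both the lowest of that group. At 30 days it had 33.2 and 46.7 CPM (library 7). With the oligodendrocyte marker level as a term in the edgeR fit, Lrrc8b (-0.25, adjusted p = 0.445), Lrrc8d (-0.22, adjusted p = 0.371) and Lrrc8a (-0.08, adjusted p = 0.826) did not pass the test between regions at 30 days, nor did Lrrc8a at 7 days (-0.13, adjusted p = 0.992). At 30 days the marker sums of the regions overlapped, with ONP libraries 2 and 3 below ONH library 7 (40130 CPM), whereas at 7 days they did not. With both the block and the marker level at 30 days, no member passed, and the value of Lrrc8a was -0.66 (adjusted p = 0.998).

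**Figure D4:**
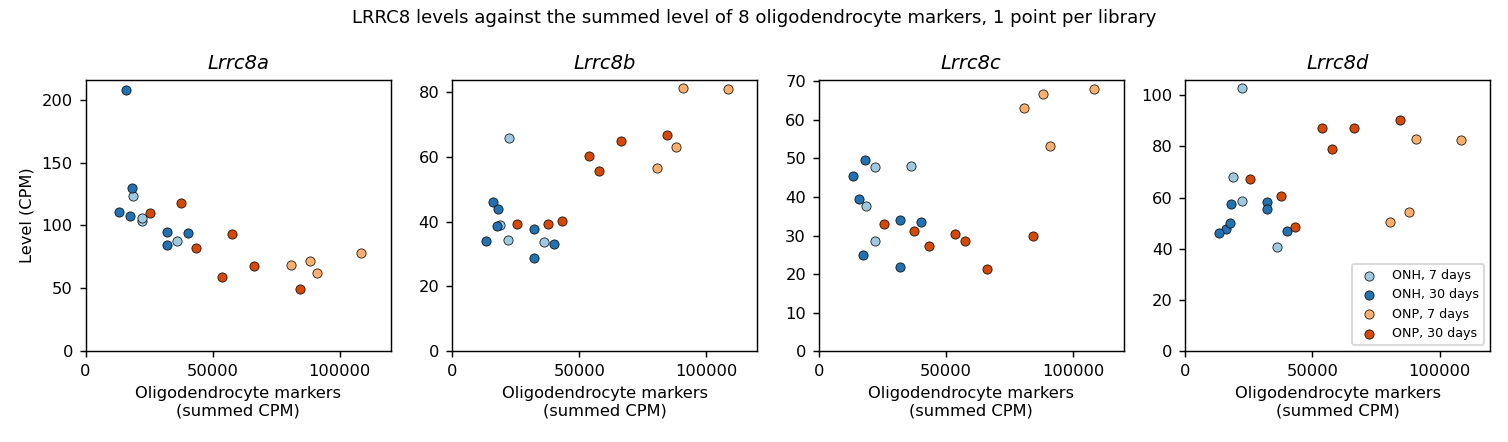
Level of Lrrc8a to Lrrc8d (y axis, CPM) against the summed level of 8 oligodendrocyte markers (x axis, CPM), 1 point per library, coloured by region and day. The ONP libraries at 30 days cover 25535 to 84462 CPM on the x axis and have 21.4 to 32.9 CPM of Lrrc8c. Those at 7 days cover 80628 to 108361 CPM and have 53.3 to 68.1 CPM of Lrrc8c. Lrrc8b is at 55.5 to 66.9 CPM in the 4 ONP libraries at 30 days farthest to the right.

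Lrrc8e was close to the limit of detection, which was taken as 3 counts, or 0.0901 to 0.184 CPM depending on the library, and covers counting error only. In the ONH it had 70, 59, 0 and 42 counts at 7 days (3.82, 1.79, 0 and 2.41 CPM) and 7 to 24 counts at 30 days (0.275 to 1.04 CPM). In the ONP it had 8, 0, 28 and 53 counts at 7 days and 0, 7, 2, 2, 2, 2 and 4 counts at 30 days. Thus 5 of the 7 ONP libraries at 30 days were at or below the limit, and at 7 days both regions held a library with 0 counts beside libraries with 28 or more. It was the higher one in the ONH in 7 of 7 pairs at 30 days, a count for which the share of all genes is not given. edgeR's filter removed it from both comparisons that involve the ONP at 30 days. DESeq2, which kept it, called it lower at 30 than at 7 days in the ONP (adjusted p = 0.0202, with 20.2% of genes called) and higher in the ONH than in the ONP at 30 days (adjusted p = 0.000156, with 36.8% of genes called), from these counts. In the ONH over time the edgeR log2 fold change was -1.46 with a wide 95% interval (-3.24 to 0.31, adjusted p = 0.436), and between regions at 7 days it was 1.12 (-1.64 to 3.88, adjusted p = 0.594).

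Across the 22 libraries Lrrc8b and Lrrc8d varied together most closely, and Lrrc8a ran opposite to both. On log2(CPM + 0.5), Pearson's r was 0.72 between Lrrc8b and Lrrc8d, 0.48 between Lrrc8c and Lrrc8e, 0.41 between Lrrc8b and Lrrc8c, -0.07 between Lrrc8c and Lrrc8d, -0.04 between Lrrc8a and Lrrc8c, -0.43 between Lrrc8a and Lrrc8d and -0.53 between Lrrc8a and Lrrc8b. These are descriptions, since the libraries share regions, times and levels of other cells' RNA. The 3 genes whose pattern was most like that of a subunit, among 16747 other genes, were Aplp2 (r = 0.92), Glg1 (0.88) and Slc39a6 (0.87) for Lrrc8c, Maml2 (0.90), Ndfip1 (0.86) and Lman1 (0.85) for Lrrc8a, Jak2 (0.91), Ptpdc1 (0.86) and Dis3l2 (0.86) for Lrrc8b, Pomgnt1 (0.92), Zfp746 (0.92) and Tmed7 (0.91) for Lrrc8d, and Arfgap3 (0.82), Atrnl1 (0.80) and Ighg1 (0.79) for Lrrc8e. Aplp2, an amyloid precursor-like protein gene, had 1087 to 1263 CPM in the ONP at 7 days and 703 to 858 CPM at 30 days.

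Tmed7, a cargo receptor of the early secretory pathway, spread widely within groups. It had 30.8 and 34.0 CPM in ONP libraries 1 and 2 at 30 days against 154 to 178 CPM in libraries 3 to 7, and 36.0 and 24.1 CPM in ONP libraries 1 and 2 at 7 days against 151 and 138 CPM in libraries 5 and 6. In the ONH it had 164, 141, 74.8 and 22.8 CPM at 7 days and 27.3 to 52.0 CPM at 30 days. Lrrc8d was low and high in the same libraries, with 48.4 and 60.5 CPM against 67.1 to 90.4 CPM in the ONP at 30 days, 50.6 and 54.5 CPM against 83.0 and 82.6 CPM in the ONP at 7 days, and 102.9, 67.8, 58.7 and 40.6 CPM in the ONH at 7 days. Tmed7 was named for its correlation with Lrrc8d over these same libraries, so this likeness follows from that choice. The labels name nothing that sets these libraries apart, and the part of this split in the region difference of Lrrc8d at 30 days was not tested.

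Other genes of cell volume and anion transport were taken from lists of 50 genes in all (other anion channels, cation-chloride cotransporters and WNK kinases, organic osmolytes, water and swelling sensing, and the cGAMP pathway). In the ONP from 7 to 30 days, 12 of the 48 tested were called lower and 2 higher (14 in all, where 17% of all genes were called and 9.21% were called lower), with a median log2 fold change of -0.29 against -0.01 for all genes. Slc6a12, the betaine and GABA transporter of osmotic adaptation, fell from 21.0 ± 13.4 (SD, n = 4) to 4.99 ± 3.53 CPM (n = 7; log2 fold change -2.10, adjusted p = 0.0201). Trpv4, an osmosensitive cation channel, fell by 1.47 on the log2 scale (adjusted p = 0.0488), and Slc12a2, the cotransporter NKCC1 that loads cells with chloride, fell from 212 ± 51.5 to 101 ± 24.3 CPM (-1.10, adjusted p = 0.00333). Cdo1, an enzyme of taurine synthesis, rose from 15.9 ± 4.20 to 42.4 ± 8.09 CPM (1.37, adjusted p = 0.00128), and Aqp9, a channel for water and glycerol, rose by 1.26 on the log2 scale (adjusted p = 0.0375). By list, 3 of 16 other anion channels, 2 of 10 cotransporters and kinases, 3 of 9 osmolyte genes, 3 of 7 water and swelling genes and 1 of 6 cGAMP genes were called lower, and the 2 called higher were an osmolyte gene and a water gene.

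In the ONH over time, 0 of the 48 genes tested were called by edgeR (median -0.11 against -0.02 for all genes). Between the regions at 30 days, 6 of 45 were called higher and 10 lower in the ONH, 16 in all, where 41.8% of all genes were called. Wnk1, the chloride-sensing kinase upstream of the cotransporters (0.99, adjusted p = 8.77e-05), Kcnj10, the potassium channel Kir4.1 (0.70, adjusted p = 0.00335), and Irf3, a transcription factor downstream of cGAMP sensing (0.54, adjusted p = 0.000286), were higher in the ONH. Enpp1, which degrades cGAMP (-2.40, adjusted p = 0.00146), Cdo1 (-2.09, adjusted p = 3.71e-07) and Aqp4, the main water channel of astrocytes (-1.43, adjusted p = 0.000298), were lower in the ONH. At 7 days 3 of 47 were called higher and 9 lower, 12 in all, where 13.2% of all genes were called. Csad, the taurine synthesis enzyme acting after Cdo1 (0.82, adjusted p = 0.00735), and Ano6, a calcium-activated scramblase and channel (0.61, adjusted p = 0.0382), were higher in the ONH, as was Aqp1, whose mean was 6.58 ± 5.76 CPM in the ONH and 0.0518 CPM in the ONP, under the limit of detection. Ttyh2, a tweety family protein (-1.77, adjusted p = 0.00027), Aqp4 (-1.65, adjusted p = 0.00106) and Clcn5, an endosomal chloride transporter (-1.61, adjusted p = 0.023), were lower. Kcnj10 was also called lower in the ONH at 7 days by edgeR (-0.78, adjusted p = 0.034), the opposite direction to 30 days. In the difference between the regions' changes over time, Kcnj10 (-1.52, adjusted p = 0.0186) and Wnk1 (-1.10, adjusted p = 0.0461) were called among 50 tested, where 0.543% of all genes were called.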

How the data were processed

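RNA bound to HA-tagged ribosomes was immunoprecipitated, and poly(A) libraries were made with a Smart-Seq HT kit that does not mark strand. The authors used STAR 2.6.1d on mm10 and Salmon 0.14.2 with Ensembl 94 annotation and deposited expected counts per gene, which are whole numbers without normalization. They also deposited log2 values from the variance stabilizing transformation of DESeq2 1.34.0, used here only as an alternative scale for the levels. Salmon shares reads between overlapping transcripts: Lrrc8a shares 66.2% of its exonic bases with the readthrough gene Gm28035 (0 to 62 counts, against 996 to 4743 for Lrrc8a), and Lrrc8d 218 bases with its antisense gene Lrrc8dos (0 to 8 counts).

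Comparisons used edgeR 4.0.16 under R 4.3.3 (filterByExpr by group, TMM, quasi-likelihood test, Benjamini-Hochberg adjustment over all genes tested, adjusted p under 0.05), in pairs and, for the difference of changes, over all 4 groups. Fold changes are log2, and intervals are 95%. The fits were tested on simulated counts. DESeq2 1.42.0 and limma-voom (limma 3.58.1) were alternatives, with RLE or library-size scaling, other filters, all groups in a single fit, the replicate number as a block and each library left out. Levels of other cells' markers as covariates, and blocked fits with the oligodendrocyte level or without each pair, were added after the data were seen. Gene lengths are from GENCODE M21 on GRCm38.

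The members, the gene lists and the alternatives were chosen with earlier results of these data known. The text names all members, up to 3 listed genes called in each direction per comparison with the largest changes, and the 3 genes most correlated with each member over the 22 libraries. Kcnj10 at 7 days is given besides, because its direction differed from that at 30 days. Tmed7, one of the correlated genes, was described by library after its values were seen.

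At 30 days the pairs rest on equal replicate numbers. The study's methods take both regions from the same mice but do not say that equal numbers share them. The correlation of same-numbered libraries' deviations from their group means was 0.08 to 0.47, over 0.1 in 5 of 7 pairs, and in 4 of 7 a library with another number correlated more closely. Nothing else says whether replicates share a litter or day. Replicates differed by far more than sampling noise. Comparisons with uninjured mice were not analysed here.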

Additional observations from a re-analysis of the deposited data

Results flagged for a closer look

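In the ONH at 30 days, library 1 had 207.9 CPM of Lrrc8a, far from the other 6 libraries (84.5 to 129.8 CPM). In the ONH at 7 days, library 1 had 65.8 CPM of Lrrc8b, apart from the other 3 (33.7 to 39.0 CPM). These were 2 of 20 sets of library levels checked, and chance sets apart about 1 in 20. The region differences of these genes at those times are given without them in the report.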

How the results depend on the processing

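The fall of Lrrc8c in the ONP kept its direction and its call in every alternative, with log2 fold changes of -1.33 to -1.04. The value of -1.33 is from the fit with the endothelial marker level, which cannot separate that level from time. Scaling by library size alone moved the median of all genes by 0.114 in that comparison and by 0.114 and 0.152 in the region comparison at 7 days and the difference of changes. The number of members called in the ONP over time was 1, and 2 with DESeq2 (range 1 to 2 with a library left out). Between regions at 30 days it was 2, and 4 with DESeq2, 4 with all 4 groups in a single fit and 0 with the oligodendrocyte marker level (1 to 3 with a library left out). The replicate block kept it at 2, with Lrrc8a gained and Lrrc8b lost (2 to 3 with a pair left out), and the block with the oligodendrocyte marker level gave 0. At 7 days it was 1, and 2 with DESeq2, 2 with all groups in a single fit, 0 with no filter beyond 1 count and 0 with the oligodendrocyte or microglia marker level (0 to 2 with a library left out). For the difference of changes it was 0, and 1 with DESeq2 and with the oligodendrocyte marker level. In limma-voom with the 30 day replicates as blocks, Lrrc8c had a difference of -0.97 (adjusted p = 0.0541). No block was fitted at 7 days, where the columns carry no replicate number of the titles. The causes of these changes were not tested. The members tested differ between settings. The main edgeR fit left out Lrrc8e in the ONP over time and between regions at 30 days. DESeq2 tested and called it in both. The single edgeR fit of all 4 groups called it between regions at 30 days (adjusted p = 0.0255). Lrrc8e had 0 to 7 counts in the ONP at 30 days. Of all genes, edgeR called 17% in the ONP over time and 0.543% in the difference of changes. Between regions it called 41.8% at 30 days and 13.2% at 7 days. DESeq2 called 20.2%, 2.28%, 36.8% and 19% in that order, and the blocked edgeR fit called 44.4% at 30 days. The shares of all genes under the other settings are not given, so those counts cannot be set against them.

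Values that changed sign were not called in the report except where named there. They were Lrrc8a in the ONH over time (-0.16 with the endothelial marker level, and -0.013 to 0.25 with a library left out), Lrrc8b there (-0.31 to 0.070 with a library left out), Lrrc8a in the ONP (-0.39 with the oligodendrocyte and -0.48 with the endothelial marker level), Lrrc8b in the ONP (0.026 with the oligodendrocyte and 0.074 with the endothelial marker level), Lrrc8a between regions with the oligodendrocyte marker level (-0.080 at 30 days, -0.66 there with the replicate block as well, and -0.13 at 7 days), Lrrc8c at 7 days (0.016 with it), Lrrc8d at 7 days (-0.0036 with no filter, -1.11 with the oligodendrocyte and -0.0075 with the microglia marker level, -0.26 to 0.19 with a library left out) and Lrrc8a in the difference of changes (-0.43 with the oligodendrocyte, -0.14 with the endothelial and -0.086 with the microglia marker level, -0.054 to 0.23 with a library left out).

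Shares moved with the length used. In the order ONH at 7 and 30 days and ONP at 7 and 30 days, the coding length gave Lrrc8a 41.8%, 48.1%, 26.2% and 35.2%, Lrrc8c 16.3%, 14.9%, 23.8% and 12.4%, Lrrc8d 24.3%, 20.9%, 23.5% and 29.8%, and Lrrc8b 15.8% in the ONH at 30 days. The coding length also gave Lrrc8b 26.3% in the ONP at 7 days, slightly above Lrrc8a there. The longest transcript gave Lrrc8a 50.5%, 57.0% and 34.3% in the first 3, Lrrc8b 21.8% in the ONP at 7 days, and Lrrc8d 23.4%, 19.8%, 24.4% and 29.5%. The shares of Lrrc8e rest on low counts, at most 70 in a library.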
